A study of Homo sapiens with 2 samples.

Results

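In RNA-seq of C28/I2 cells, 52 well-counted genes had a level in the FGF9 knockdown library of 0.5 or less of that in the control library. The comparison addressed which transcripts change when chondrocytes lose fibroblast growth factor 9 (FGF9). The genes were chosen by the measured counts. A lower gene had at least 40 counts in 1 of the libraries and a CPM ratio (count scaled to the total of its library, shFGF9-D1 to shvoid) of 0.5 or less. Genes of the mitochondrial genome, symbols ending in -AS and a number, and 11 named symbols that belong to other gene groups were left out. The 52 were 3.48% of 1496 genes with at least 40 counts in 1 library, of 58220 genes listed in all. Without those exclusions, 63 of 1615 genes (3.9%) were lower. Because the same ratios chose the genes, they are a description and carry no test.

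C28/I2 is an immortalized line of human chondrocytes. Cells were infected for 72 hr at a multiplicity of infection of 10 with a lentivirus carrying either a void control (shvoid, genotype WT) or an shRNA against FGF9 (shFGF9-D1, genotype FGF9 knock down), and both received no other treatment. Each condition had 1 library, so no difference has a replicate check, and an effect of the hairpin and ordinary variation from culture to culture cannot be told apart. The libraries summed to 519192 counts for shvoid and 502774 for shFGF9-D1. The kit kept strand, but how strand was handled in counting is not stated in the sources read here. For 40 of the 52 genes, SAR1B, NSA2, DCAF13, PAX6 and most antisense genes included, exon is shared with an opposite-strand gene. The counts given are therefore those listed under the gene's name, and where exon is shared, reads of the gene and of its partner cannot be told apart. The shared part of the gene's exon ranged from 0.402% in FOXA1 to 100% in THRIL, with 3.51% in SAR1B and 51.2% in NSA2. Intervals below are exact Clopper-Pearson 95% intervals of the ratio, and they cover counting error only. FGF9 itself (chromosome 13, 21671383 to 21704498, GRCh38) had 0 counts in either library, which allows a level of up to 5.78 CPM in shvoid and 5.97 CPM in shFGF9-D1. These counts therefore cannot show the knockdown, which the authors report for this hairpin in C28/I2 cells from separate measurements. Of 16 chondrocyte markers, 3 reached 10 counts, led by CHAD with 17 counts in shvoid and 16 in shFGF9-D1 and MATN1 with 16 and 12, and the defining cartilage collagen COL2A1 had 0 counts in either library, with the same limits.

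FGF9 is a secreted ligand of the FGF receptors, which signal to the nucleus largely through the RAS and ERK kinases and shape the proliferation and maturation of chondrocytes in the growth plate. Part of the lower genes encode proteins of general cell biology, such as vesicle coats and ribosome assembly factors. Others are long non-coding RNAs transcribed from the strand opposite to a coding gene. Such antisense RNAs can share exon sequence with their partner, so that only the strand of a read tells them apart.

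Of the 52 genes, 27 were protein-coding, 18 were annotated as antisense, 3 were of the class awaiting experimental evidence of their biotype (TEC), 2 were lincRNAs and 2 were processed pseudogenes. Among all 1490 counted genes with an annotation, 64.4% were protein-coding and 24.9% antisense, against 51.9% and 34.6% of the lower genes. All 52 reached 40 counts in the shvoid library, and 11 also did so in the shFGF9-D1 library. Their counts ran from 40 to 602 in shvoid, with a median of 67, and from 10 to 240 in shFGF9-D1, with a median of 29. Together the 52 genes took 1.01% of the shvoid counts and 0.416% of the shFGF9-D1 counts, a pooled ratio of 0.410 (interval 0.390 to 0.432). The rule by itself puts this pooled ratio at or under 0.5, and its interval leaves out that choice of genes. The median log2 ratio was -1.21 over the lower genes and 0.10 over the 1496 counted genes. In shvoid, 22 of them had fewer than 60 counts (42.3%, against 25.7% of the counted genes by their higher library) and 11 had at least 100.

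**Figure D1:**
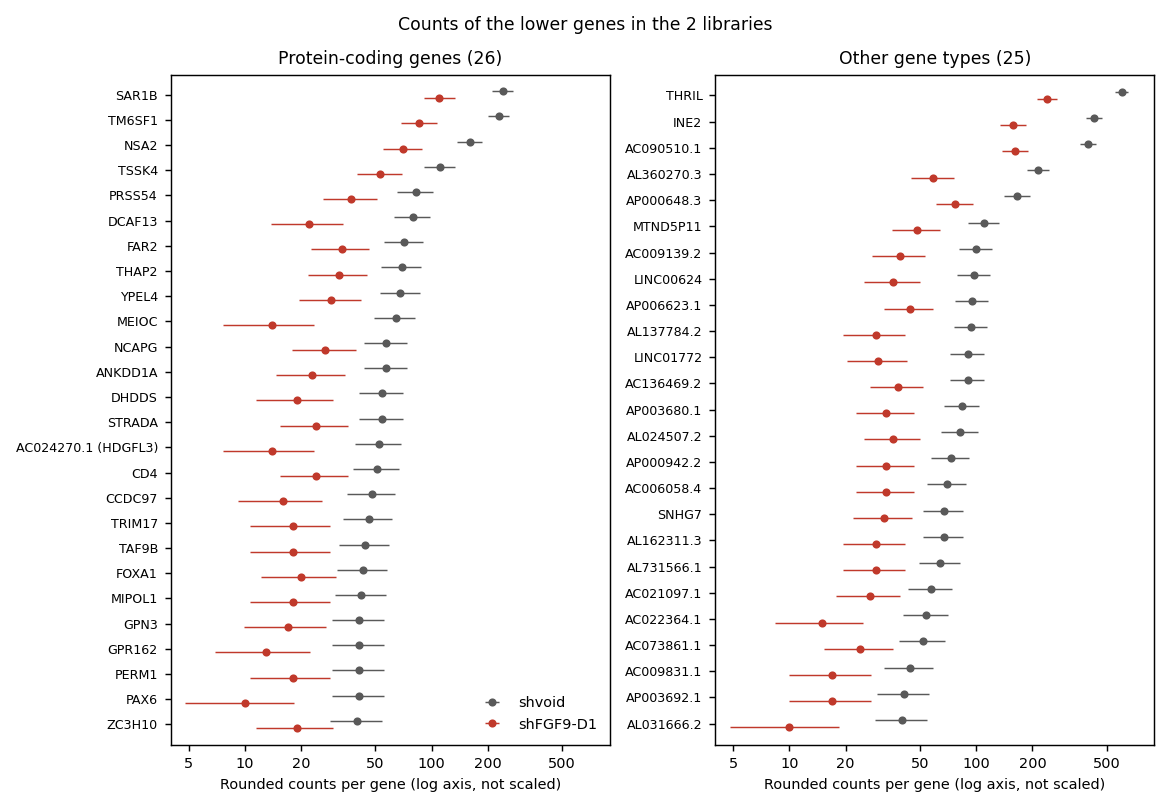
Rounded counts of 51 of the 52 lower genes in the shvoid library (grey) and the shFGF9-D1 library (red) on a log axis, not scaled, with 1 library per condition and exact Poisson 95% intervals that cover counting error only. THRIL is the gene with most counts, at 602 and 240, and SAR1B leads the protein-coding genes, at 241 and 110.

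The RefSeq promoter table of GRCh38.p14 held 22 of the 52 genes, and motifs were searched in the 250 bases before each start. Sequence is shown for SAR1B, the coding gene with most counts, for HDGFL3, which the count table names AC024270.1 and which lies opposite the lower gene TM6SF1, and for NCAPG and DHDDS, which held the core of the antioxidant response element. Each is the longest stretch of the window outside any GENCODE exon. TM6SF1 and NSA2, the other coding genes of the table with at least 100 counts, left fewer than 50 such bases and are not shown. Sequences run 5′ to 3′ on the strand of the gene, and capitals mark every match on either strand to the motifs searched.
SAR1B (chr5:134632989-134633078, minus strand): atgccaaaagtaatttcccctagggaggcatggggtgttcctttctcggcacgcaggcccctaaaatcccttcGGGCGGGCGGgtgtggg
HDGFL3 (chr15:83208019-83208073, minus strand): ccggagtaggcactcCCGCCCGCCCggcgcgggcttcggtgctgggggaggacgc
NCAPG (chr4:17810759-17810901, plus strand): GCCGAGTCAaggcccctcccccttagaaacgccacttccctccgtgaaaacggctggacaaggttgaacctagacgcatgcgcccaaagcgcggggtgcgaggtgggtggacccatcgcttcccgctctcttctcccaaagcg
DHDDS (chr1:26432071-26432281, plus strand): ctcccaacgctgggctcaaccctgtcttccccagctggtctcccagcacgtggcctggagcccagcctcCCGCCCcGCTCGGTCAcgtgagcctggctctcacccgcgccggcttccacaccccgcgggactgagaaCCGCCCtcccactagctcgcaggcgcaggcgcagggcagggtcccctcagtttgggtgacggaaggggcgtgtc

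The SP1 box GGGCGG was in 18 of the 22 promoters (81.8%), against 66.7% of the 762 counted genes with a promoter and 42.3% of all 27305 promoters. The stretches of SAR1B and HDGFL3 above each show a pair of overlapping copies. The ETS site CCGGAAG, bound by a family of factors that ERK phosphorylates, was in 4 of the 22 (18.2%), against 17.2% of the counted genes. These were SAR1B, TM6SF1, NSA2 and NCAPG. The core of the antioxidant response element, TGACNNNGC, through which NRF2 acts, was in 2 of 22 (9.09%), against 13.1% of the counted genes. In NCAPG it overlaps the ETS match, which is not shown because it runs into an exon of the opposite-strand gene DCAF16. AP-1 (TGANTCA) and the cyclic AMP response element (TGACGTCA) were each in 1 promoter, those of YPEL4 and PAX6. Of the counted genes, 5.25% and 2.89% held them. No match to the NRF1 site or to the YY1 site AAGATGGCG was in the 22 windows, against 2.1% and 1.6% of the counted genes. At these shares 22 windows allow no reading of 0 or 1 matches. For SAR1B the RefSeq start lies 16443 bases from the outermost GENCODE start, so the stretch shown is in an intron of longer transcripts, and the other promoters of this gene were not covered.

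Genes of membrane traffic and lipid synthesis included the protein-coding gene with most counts. The grouping by function was made after the values were seen. SAR1B (chromosome 5, 134601144 to 134649271, minus strand), the small GTPase that starts COPII coat assembly for export from the endoplasmic reticulum, had 241 counts in shvoid and 110 in shFGF9-D1 (ratio 0.471, interval 0.373 to 0.593). Its paralogue SAR1A had 3 and 4 counts. SEC24A, the cargo adaptor of the same coat, lies head to head with SAR1B on the opposite strand, shares 385 bases of exon and had 5 counts against 1. DHDDS, a subunit of the enzyme that makes the dolichol carrier of N-glycosylation, had 54 and 19 counts (ratio 0.363, interval 0.203 to 0.623). FAR2, a fatty acyl-CoA reductase, had 71 and 33.

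Genes of ribosome assembly and transcription formed a further group. NSA2 (chromosome 5, 74766991 to 74780113, plus strand), a factor of large ribosomal subunit assembly, had 160 counts in shvoid and 70 in shFGF9-D1 (ratio 0.452, interval 0.336 to 0.602). Its exons share 2540 bases, 51.2% of their length, with the end of FAM169A, which had 20 and 18 counts. DCAF13, which takes part in ribosomal RNA processing, had 79 and 22 counts (ratio 0.288, interval 0.171 to 0.466). GPN3, a GTPase needed for assembly of RNA polymerase II, had 41 and 17, and TAF9B, a subunit of the general factor TFIID, had 44 and 18. The close relative TAF9 had 0 counts in either library, which allows the levels given for FGF9. Among sequence-specific factors, PAX6, known from eye development, had 41 and 10 counts (ratio 0.252, interval 0.112 to 0.511), and FOXA1, a pioneer factor of endoderm, had 43 and 20. THAP2, a protein with a THAP zinc finger, had 69 and 32, and ZC3H10, with CCCH zinc fingers, had 40 and 19.

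A number of the coding genes are known for tissues other than cartilage. TSSK4 (chromosome 14, 24205697 to 24208362), a serine kinase of testis, had 111 counts in shvoid and 53 in shFGF9-D1 (ratio 0.493, interval 0.349 to 0.690). MEIOC, which sustains the meiotic programme of germ cells, had 64 and 14 (ratio 0.226, interval 0.117 to 0.407). PRSS54, an inactive serine protease, had 82 and 37, and PERM1, a regulator of muscle mitochondria, had 41 and 18. CD4, the co-receptor of helper T cells, had 51 and 24. GPR162, an orphan receptor whose gene starts 736 bases beyond the end of CD4 on the same strand of chromosome 12, had 41 and 13. Neither CD4 nor GPR162 shares exon with an opposite-strand gene, and other T cell markers were not examined.

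The remaining coding genes had from 42 to 229 counts in shvoid. NCAPG, a condensin subunit that compacts mitotic chromosomes, had 57 counts in shvoid and 27 in shFGF9-D1. STRADA, the pseudokinase that activates LKB1, had 54 and 24, and TRIM17, a RING ubiquitin ligase, had 46 and 18. HDGFL3, a relative of hepatoma-derived growth factor, had 52 and 14 (ratio 0.278, interval 0.142 to 0.509). YPEL4 had 68 and 29, ANKDD1A had 57 and 23, CCDC97 had 48 and 16, and MIPOL1 had 42 and 18. TM6SF1 (chromosome 15, 83107407 to 83144854, plus strand), a multi-pass membrane protein, had 229 and 86 counts (ratio 0.388, interval 0.299 to 0.499). It was the coding gene with at least 100 counts whose ratio was lowest.

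Non-coding genes gave the best counted of the lower genes. THRIL (chromosome 12, 125025434 to 125027410, minus strand), a long non-coding RNA linked to the gene for tumour necrosis factor, had 602 counts in shvoid and 240 in shFGF9-D1 (ratio 0.412, interval 0.353 to 0.479). INE2 (chromosome X, 15785716 to 15787589, minus strand) had 429 and 158 (ratio 0.380, interval 0.315 to 0.458). AC090510.1, a lincRNA on chromosome 15, had 399 and 162 (ratio 0.419, interval 0.347 to 0.505). AL360270.3, an antisense RNA at the start of LRIF1 on chromosome 1, had 214 and 59, and at 0.285 (interval 0.210 to 0.381) its ratio was the lowest of the 11 genes with at least 100 counts. Among the other non-coding loci of this depth, AP000648.3 had 166 and 77 counts (ratio 0.479, interval 0.361 to 0.631) and MTND5P11 had 110 and 48 (ratio 0.451, interval 0.314 to 0.638). AC009139.2 had 100 and 39 (ratio 0.403, interval 0.271 to 0.589), and its partner MON1B had 2 and 6. MTND5P11 is a processed copy of the mitochondrial gene MT-ND5, which had 30869 counts in shvoid and 18494 in shFGF9-D1 (ratio 0.619, interval 0.607 to 0.630), and reads could be shared between the copies. The other antisense genes had from 40 to 97 counts in shvoid and from 10 to 44 in shFGF9-D1. SNHG7, a host gene of small nucleolar RNAs that is annotated as antisense, had 67 and 32.

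The less counted non-coding genes mostly lay opposite well-known coding genes that had few counts. AL137784.2, opposite the cyclin C gene CCNC, had 94 counts in shvoid and 29 in shFGF9-D1, while CCNC had 11 and 13. LINC00624, opposite the chromatin remodeller CHD1L, had 97 and 36, while CHD1L had 1 and 5. AP003680.1, opposite the kinase gene PAK1, had 84 and 33, while PAK1 had 0 counts in either library. In each of these pairs the gene on the opposite strand, to which no count minimum applied, had the fewer counts. AL024507.2 had 82 and 36 counts beside 1 and 2 for SEC63, a translocation factor of the endoplasmic reticulum. AP000942.2 had 73 and 33 beside 11 and 8 for YAP1, the effector of Hippo signalling. AL162311.3 had 67 and 29 beside 1 and 4 for BRMS1L, and AL731566.1 had 64 and 29 beside 2 and 5 for NSMCE4A. The partner counts of these genes were too low to follow. AC022364.1 had 54 and 15 beside 4 and 1 for CCDC91, and AC009831.1 had 44 and 17 beside 21 and 31 for TRAPPC8, a factor of vesicle tethering. AL031666.2 had 40 and 10 beside 17 and 13 for ZMYND8, a reader of chromatin marks. AP003692.1 had 41 and 17 and AP006623.1 had 95 and 44. AL031666.2 had the lowest ratio among the antisense genes, at 0.258. The lincRNA LINC01772 had 90 and 30 counts beside 8 and 1 for the pseudogene CROCCP3. The TEC loci AC136469.2 and AC006058.4 had 90 and 38 and 70 and 33, and the processed pseudogene AC073861.1 had 52 and 24.

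**Figure D2:**
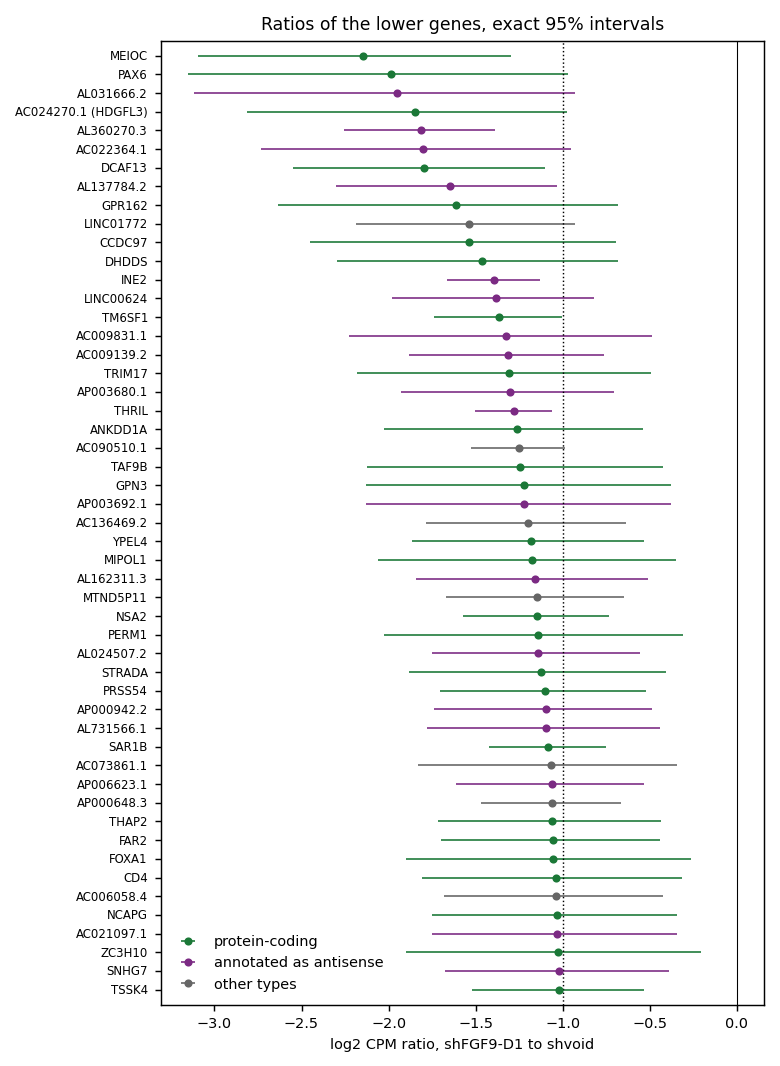
Log2 CPM ratio of shFGF9-D1 to shvoid for 51 of the 52 lower genes, ordered by ratio and coloured by gene type, 1 library per condition, with exact Clopper-Pearson 95% intervals for counting error. The dotted line marks a ratio of 0.5, and the whole intervals of MEIOC, INE2 and THRIL, among others, lie below it.

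All 52 ratios were at most 0.493, and 35 of them were above 0.4. The rule itself makes every interval exclude equal levels, since a gene at the limit with 40 counts, ZC3H10, had one of 0.268 to 0.867. The interval stayed at or under 0.5 along its whole length in 8 genes (0.535% of the 1496), among them MEIOC, AL360270.3, DCAF13, AL137784.2, INE2, TM6SF1 and THRIL. Antisense genes had a median ratio of 0.409 and coding genes one of 0.440. Just inside the limit were SNHG7 (0.493), TSSK4 (0.493) and ZC3H10 (0.491). Just outside it were FAM13A, with 68 counts in shvoid and 33 in shFGF9-D1 (0.501), TYMP, with 45 and 22 (0.505), and RHOBTB2, with 47 and 23 (0.505). These neighbours differed by less than counting error. In the other direction, 45 of the 1496 genes (3.01%) had a ratio of 2 or more.

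**Figure D3:**
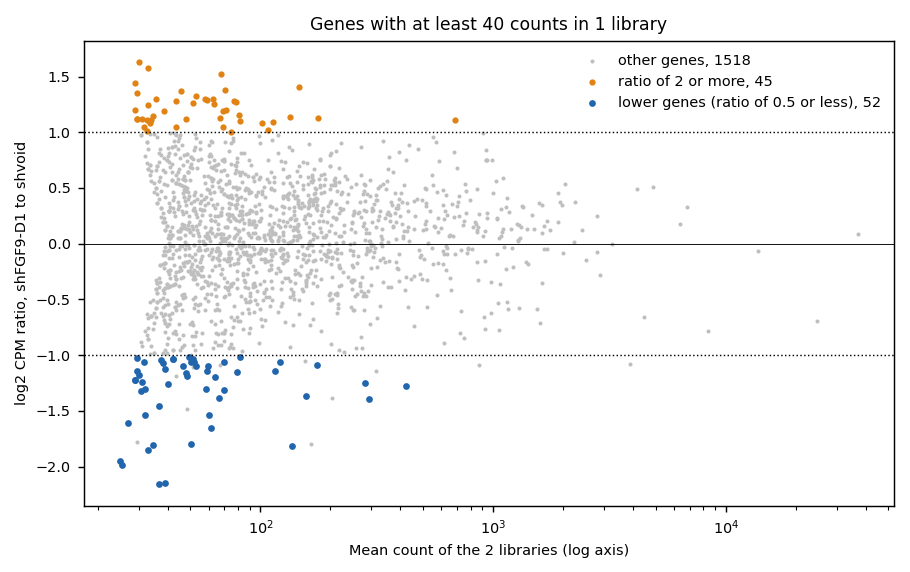
Log2 CPM ratio of shFGF9-D1 to shvoid on the vertical axis, and the average count on a horizontal log axis, for the 1615 genes that reached 40 counts before exclusions. Blue points are the 52 lower genes and orange points the 45 genes with a ratio of 2 or more. Dotted lines mark 2-fold. Grey points below the lower line are the 11 genes that met the ratio limit but were left out by symbol. MT-CYB and HAS2-AS1 are among them, so they are not the same set as the 11 named symbols.

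Exons of most lower genes overlapped those of an opposite-strand gene. Of the 52, 40 did so (76.9%), 8 more overlapped the body of an opposite-strand gene without a shared exon, and 4 (GPR162, CD4, TAF9B and AP000648.3) overlapped none. Among the 1490 counted genes with an annotation, 88.8% shared exon with an opposite-strand gene, and 82.2% of the 45 higher genes did. The shared exon was head to head, at the starts of both genes, in 14 of the 40 (35.0%, against 19.3% of 1322 counted genes with a partner). It was tail to tail in 14 (35.0%, against 47.7%), and in 10 the lower gene lay inside its partner. For 6 genes the whole exon lay within exon of the partner. These were THRIL in BRI3BP, INE2 in CA5B, AC090510.1 in TTBK2, AP003692.1 in DPY19L4, AP000942.2 in YAP1 and AC021097.1 in SMARCD3. For the first 4 of these pairs every shared base lay beyond the coding region of the partner. The whole exon was shared in 7.32% of the lower genes below 100 counts, against 7.09% of counted genes of that depth. With at least 100 counts it was shared in 3 of 11 lower genes (27.3%), against 14.3% of 742 counted genes.

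Lower genes had to reach 40 counts and their partners did not. The partner had more counts than the gene itself for 5 of the 40 lower genes and for 238 of all 1322 counted genes with a partner. Of the 40 partners, taken as the opposite-strand gene with most counts for each gene, 23 (57.5%) had 10 or fewer counts in either library, against 43.2% for all counted genes with a partner. BRI3BP, a membrane protein, had 2 counts in shvoid and 1 in shFGF9-D1, beside 602 and 240 for THRIL. CA5B, a mitochondrial carbonic anhydrase, had 2 and 3 beside 429 and 158 for INE2. TTBK2, a kinase of cilium formation, had 11 and 24 beside 399 and 162 for AC090510.1, a partner ratio of 2.25 (interval of the log2 ratio 0.09 to 2.35). LRIF1 had 1 and 2 beside AL360270.3. The limit on strand given with the library totals holds for all 40 pairs.

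For 7 of the 40 genes the partner reached 40 counts, against 465 of 1322 counted genes with a partner. TM6SF1 and HDGFL3, each the partner of the other, lie tail to tail on chromosome 15 and share 1032 bases of exon. Both were lower genes by the rule, with 229 and 86 counts for TM6SF1 and 52 and 14 for HDGFL3. LCORL, which shares 1631 bases with NCAPG beyond its coding region, had 245 counts in shvoid and 174 in shFGF9-D1 (ratio 0.733, log2 interval -0.74 to -0.16), while NCAPG had 57 and 27. ELP4, a subunit of the Elongator complex opposite PAX6, had 40 and 36. SMARCD3, a chromatin remodelling subunit, had 69 and 74 beside 57 and 27 for AC021097.1. AC034102.6 had 40 and 46 beside ZC3H10. Of the partners that the rule did not itself choose, LCORL and ELP4 had a ratio below 1. SMARCD3, AC034102.6 and FAM69B had a ratio above 1. Over all counted genes, 40.4% of 465 partners with 40 counts were below 1. So few partners of the lower genes allow no reading. FAM69B had 73 and 100 counts beside 67 and 32 for SNHG7, a partner ratio of 1.42 (log2 interval 0.05 to 0.96).

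**Figure D4:**
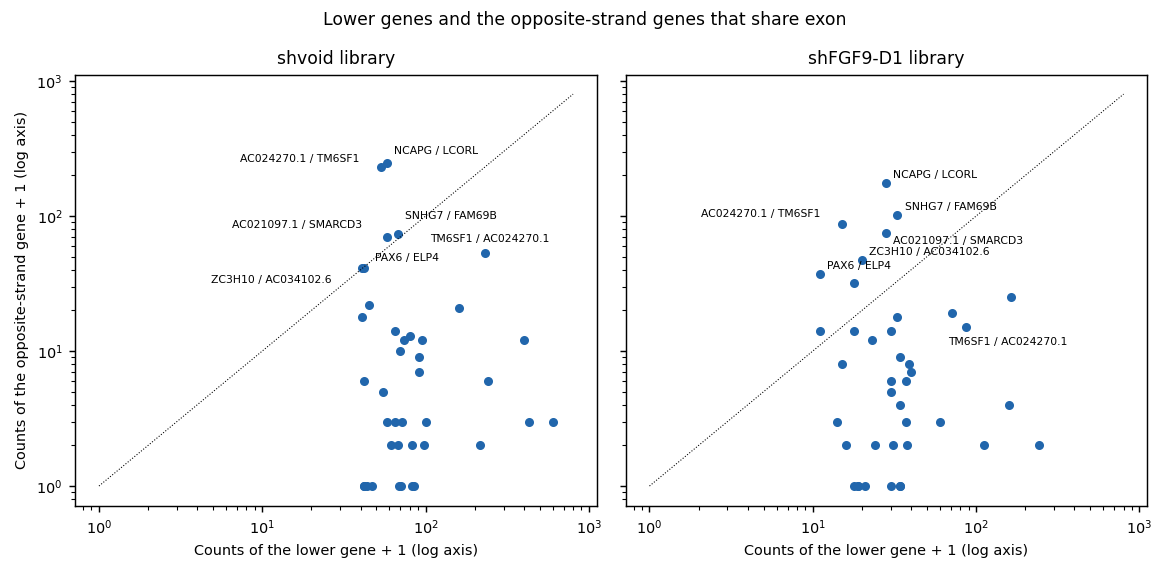
Counts plus 1 of 40 lower genes (horizontal log axis) and of the opposite-strand gene with most counts that shares exon with each (vertical log axis), in the shvoid library (left) and the shFGF9-D1 library (right), with the line of equal counts dotted. Labels name the 7 pairs whose partner reached 40 counts in a library, and most partners lie well below the line.

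The lower genes lay on 19 chromosomes and few were neighbours. Chromosome 12 held 8 of them (15.4%, against 6.71% of the counted genes). Pairs within 500 kb of each other were TM6SF1 with HDGFL3, CD4 with GPR162, MIPOL1 with FOXA1 at a distance of 37622 bases, and SAR1B with MTND5P11 at 275376 bases. Longest transcripts had a median of 46.8% GC in the lower genes and 52.0% in all counted genes. In the 11 lower genes with at least 100 counts the median was 44.0% GC, against 52.1% in 742 counted genes of that depth, while below 100 counts the medians were 50.9% and 51.8%. Whether base composition has a part in the ratios was not tested.

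The authors' FPKM, scaled by transcript length as well as by library, gave a ratio below 1 for all 52 genes and of 0.5 or less for 47 of them, where 4.41% of the 1496 genes met that FPKM limit. The FPKM come from the same reads and are no second measurement. The 5 genes above 0.5 were SNHG7 (0.647), FAR2 (0.546), FOXA1 (0.513), YPEL4 (0.507) and AP006623.1 (0.502). MEIOC had an FPKM ratio of 0.430 (33.6 in shFGF9-D1 and 78.1 in shvoid) beside a count ratio of 0.226. PERM1 went the opposite way, with an FPKM ratio of 0.294 beside a count ratio of 0.453.

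**Figure D5:**
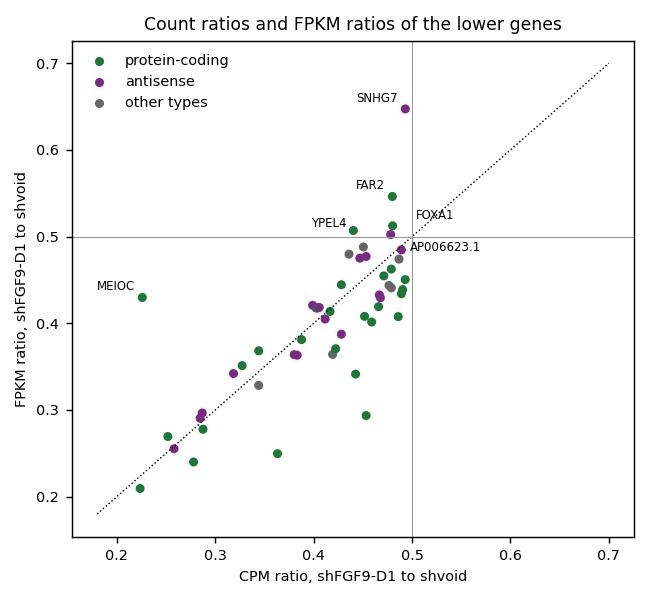
FPKM ratio against CPM ratio, shFGF9-D1 to shvoid, for the 52 lower genes by gene type, with the line of equal ratios dotted and grey lines at 0.5. Points above the horizontal grey line are the 5 genes with an FPKM ratio over 0.5, and MEIOC stands apart at 0.226 by counts and 0.430 by FPKM.

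In gene lists linked to FGF9, to viral infection and to senescence, no member reached 40 counts. None could therefore be a lower gene, whatever its ratio. None of 24 FGF and ERK response genes reached 40 counts. PHLDA1, induced by growth factors, had 17 counts in shvoid and 30 in shFGF9-D1, and DUSP6, the phosphatase that limits ERK, had 10 and 12. None of 21 interferon response genes reached 40 counts, with IFIT1 at 22 and 24. DDX58, a sensor of viral RNA that was named after its values were seen, had 21 and 10 (ratio 0.492, interval 0.207 to 1.09). None of 20 senescence genes reached 40 counts, with CDKN2A, the gene of p16, at 28 and 23. LMNB1, the lamin B1 gene, had 14 and 34 counts (ratio 2.51, interval 1.31 to 5.06). The senescence list gave no direction for its genes, so these values allow no reading of more or less senescence. Of 636 genes with a ZNF symbol, 24 reached 40 counts, 3 of them -AS symbols that the rule leaves out, and none was lower or higher by 2-fold, with a median log2 ratio of -0.01, and ZNF337-AS1 (974 and 752) and ZNF517 (354 and 428) had the most counts. Of 308 ubiquitin ligase and adaptor genes, 17 reached 40 counts, of which TRIM17 was the 1 lower gene and UBE2E1, with 31 and 65 counts, the 1 higher gene. Of 78 mitochondrial ribosome genes, 6 reached 40 counts, none was lower or higher by 2-fold, and MRPS25 had 129 and 121 counts and MRPL51 127 and 125. The median log2 ratio of these 6 was 0.32. Over all counted genes 3.48% were lower and 3.01% higher, so that lists of this size allow no reading of 0 or 1 such genes. Of 10 fibroblast and mesenchyme markers, COL1A1 was the 1 that reached 10 counts, with 19 and 26.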

How the data were processed

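RNA from 1 shvoid and 1 shFGF9-D1 culture was sequenced. The submitters' processing notes name HISAT2, Cuffdiff, Cufflinks 2.2.1, bcl2fastq 2.1.7 and build GRCh38.p14. The strand setting is not stated there. Estimated counts (unscaled) and FPKM (scaled by length and library), 1 value per gene, are as deposited by the authors. Counts were rounded and divided by column totals. A count of 0 was taken to allow 3 counts. Ratios were given exact Clopper-Pearson 95% intervals (scipy 1.17.1). With 1 library per group no test of condition was possible. Positions, gene types and exons came from GENCODE release 29 (GRCh38), matched by identifier for all 52 genes. Members and lists were chosen with earlier results of these data known. Of the 52 genes, 51 were given with their counts, those with at least 100 counts also with ratio and interval, beside the opposite-strand gene of most counts; from lists, members that met the rule or else the 2 most counted were named. Some items are not reported here. Alternatives used edgeR 4.0.16 TMM factors, DESeq2 1.42.0 size factors, other totals, minimums and FPKM (pseudocounts 1 and 0.1). The ratio rule and its intervals were tested on simulated data.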

Additional observations from a re-analysis of the deposited data

How the results depend on the processing

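Alternatives were run for the number of lower genes, their log2 ratios and the number with shared exon, and no log2 ratio changed direction. The motif, base composition, position, gene type, partner and list values were computed at 1 setting. With the count minimum at 20 the rule gave 134 genes, at 80 it gave 19, and with no minimum 4961; requiring the whole interval to lie at or under 0.5 gave 8. Scaling by TMM gave 47 genes, by DESeq2 size factors 63 and by the total outside the mitochondrial genome 68. These sets are nested, since each scaling multiplies every ratio by the same factor. Deposited FPKM gave 66, of which 47 were shared. The median log2 ratio of the 52 genes ranged from -1.28 to -1.18 over all settings, and that of all counted genes from 0.03 to 0.14 over the scalings. By gene, MEIOC was the 1 whose value left its counting interval, at -1.19 as log2(FPKM + 1) and -1.22 with a pseudocount of 0.1, against -2.15. With at least 100 shared bases of exon, 38 rather than 40 genes had an opposite-strand partner. No paired analysis was possible because each group had 1 library. At this depth a ratio of 0.5 at 40 counts has an interval as wide as that of ZC3H10, 0.268 to 0.867.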
